A study of Mus musculus with 2 samples.

Results

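The general transcription factors and the TFIID complex were followed in F123 mESCs through 69 gene records of 45 genes, out of 37178 records of 29833 genes. Members were all records whose gene name starts with Taf and a digit, with Gtf2 or with Gtf3, together with Tbp. A gene record is 1 gene with 1 transcript biotype, so that a gene may have a protein-coding and a long noncoding RNA (lncRNA) record; the members had 45 protein-coding and 24 lncRNA records. All 24 lncRNA records carried the symbol of a protein-coding gene and are processed_transcript entries of that gene in GENCODE M21, so they are noncoding transcripts of the same locus.

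F123 is a male hybrid line of mouse embryonic stem cells from a cross of an S129 (S129/Jae) mother with a CAST father. Where the strains differ by a base, reads over it can be assigned to the CAST (paternal) or the S129 (maternal) chromosome. Cells were grown on feeder fibroblasts in medium with LIF, passaged at least 2 times without feeders and harvested after about 48 h. Total RNA of 2 biological replicates was made into stranded libraries and sequenced as read pairs of 75 bases. The deposited table gives 1 value per record for the series and none per replicate, taken here as both replicates together, so no spread between replicates could be computed, and all intervals (exact, Clopper-Pearson, 95%) cover counting error only. Intervals, standard errors and p-values take every count as a separate read. They are too narrow or too small where a read was counted at several variants of a record. The cells are 1 line of 1 cross without a reciprocal cross, so the strain and the parent of origin of an allele cannot be told apart.

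RNA polymerase II needs general transcription factors to find a promoter and start. TFIID, made of the TATA-binding protein TBP and the TBP-associated factors (TAFs), recognizes the core promoter. TFIIA and TFIIB stabilize TBP and place the polymerase, TFIIF accompanies the polymerase, TFIIE recruits TFIIH, and TFIIH opens the DNA and phosphorylates the polymerase. TBP also works outside TFIID: with TAF1A to TAF1D it forms SL1, the selectivity factor of RNA polymerase I at ribosomal RNA genes. TFIIIA and TFIIIC serve RNA polymerase III at 5S ribosomal RNA and transfer RNA genes. In mESCs, TFIID is known to be needed for self-renewal.

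The table covered chromosomes 1 to 19, and the X-linked Taf1, Taf7l and Taf9b were not analysed here. All records together held 16343693 allelic reads, where a read can count at several variants and in several records. All 8 mESC marker genes (such as Pou5f1, Sox2 and Nanog) had a TPM (a read level scaled for transcript length and library size) of at least 1, with records at 3.17 to 297 TPM. Records of 8 feeder fibroblast markers lay between 0.0369 (Lum) and 8.77 TPM (Acta2) and summed to 24.5 TPM, against 1059 TPM for the mESC markers; 4 of the 8 fibroblast genes had a record at a TPM of at least 1. Of 8 primed or early lineage markers, 7 reached a TPM of 1, with Otx2 at 34.7 and 21.4 TPM. The part of other cell states in the members' values was not tested.

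Of the 69 records, 67 had a TPM of at least 1 and 66 had allelic reads. Both conditions were met by 64 records of 44 genes, which are the tested members. The records that dropped out were both records of Gtf2a1l, which lay under a TPM of 1, and the lncRNA records of Gtf2h2, Gtf3c5 and Taf6, which had no variant. The tested members had between 8 and 7600 allelic reads with a median of 695.5 at a median of 16.5 variants, against medians of 397 reads and 13 variants over all 15935 tested records.

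All tested members had reads from both chromosomes, and most had shares near equality. The CAST share of allelic reads had a median of 49.6% in the tested members, against 50.1% over all tested records, and 53 of 64 members (82.8%) lay between 40% and 60%, against 67.4% of all tested records. Summed over the members, 36034 reads came from CAST and 36653 from S129, a CAST share of 49.6%, where all records gave 50.4%. The median absolute log2 fold change of CAST over S129 was 0.16 in the tested members and 0.36 in all tested records. Among records with at least 100 reads, where counting error is smaller, it was 0.15 in 55 members and 0.31 in 12185 records. The members' shares thus lay closer to equality than those of the table at similar depth, as a description and without a test.

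**Figure D1:**
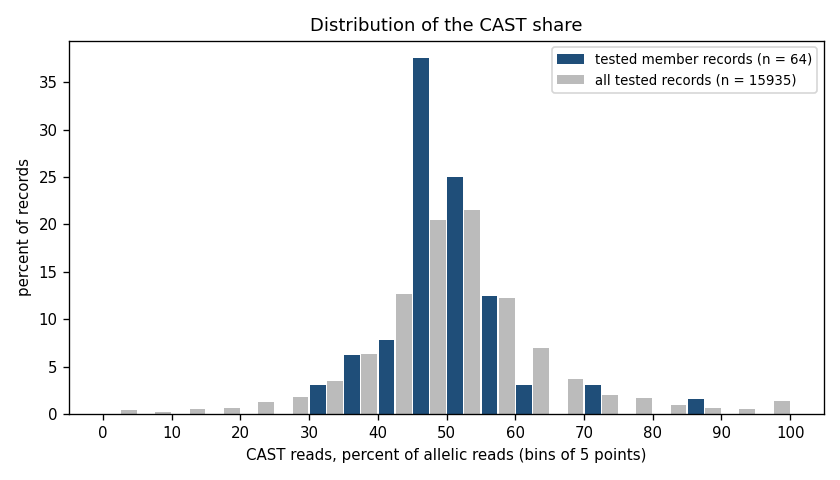
Distribution of the CAST share of allelic reads in bins of 5 percentage points (x axis) for the tested member records (blue) and all tested records (grey), each as a percent of its own records (y axis). The bin from 45% to 50% held 24 of the 64 members, 37.5%, against 20.5% of all tested records, and no member lay under 30%.

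Allele-specific expression (ASE) was called at an at least 2-fold difference between CAST and S129 reads, an adjusted p of at most 0.05 (two-sided exact binomial test, Benjamini-Hochberg adjustment over all records with allelic reads) and a TPM of at least 1. By this rule 4 of 64 members (6.25%) of 3 genes were called, against 14.1% of all tested records. The CAST allele was higher in 2 of them, the lncRNA records of Taf1d and Taf11, where 8.33% of all tested records were called for CAST. The S129 allele was higher in 2, both records of Gtf2ird1, where 5.78% of all tested records were called for S129. Among protein-coding records, 1 of 44 members (2.27%) was called, against 12.7% of 10232 tested records, and among lncRNA records 3 of 20 (15%), against 16.6% of 5703.

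Smaller differences were more frequent. With an adjusted p of at most 0.05 and an at least 1.5-fold difference, 10 records of 7 genes passed (15.6%), 4 with CAST and 6 with S129 higher, against 25.8% of all tested records. At any fold, 25 records of 21 genes (39.1%) passed the same exact binomial test, 13 with CAST and 12 with S129 higher, against 48.3%. All 4 calls ended when the test allowed for a spread beyond counting error (beta-binomial with an intra-gene correlation of 0.05), with 0 members called and 3.06% of all records; at a correlation of 0.01 all 4 were still called. No member was called at 3-fold.

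**Figure D2:**
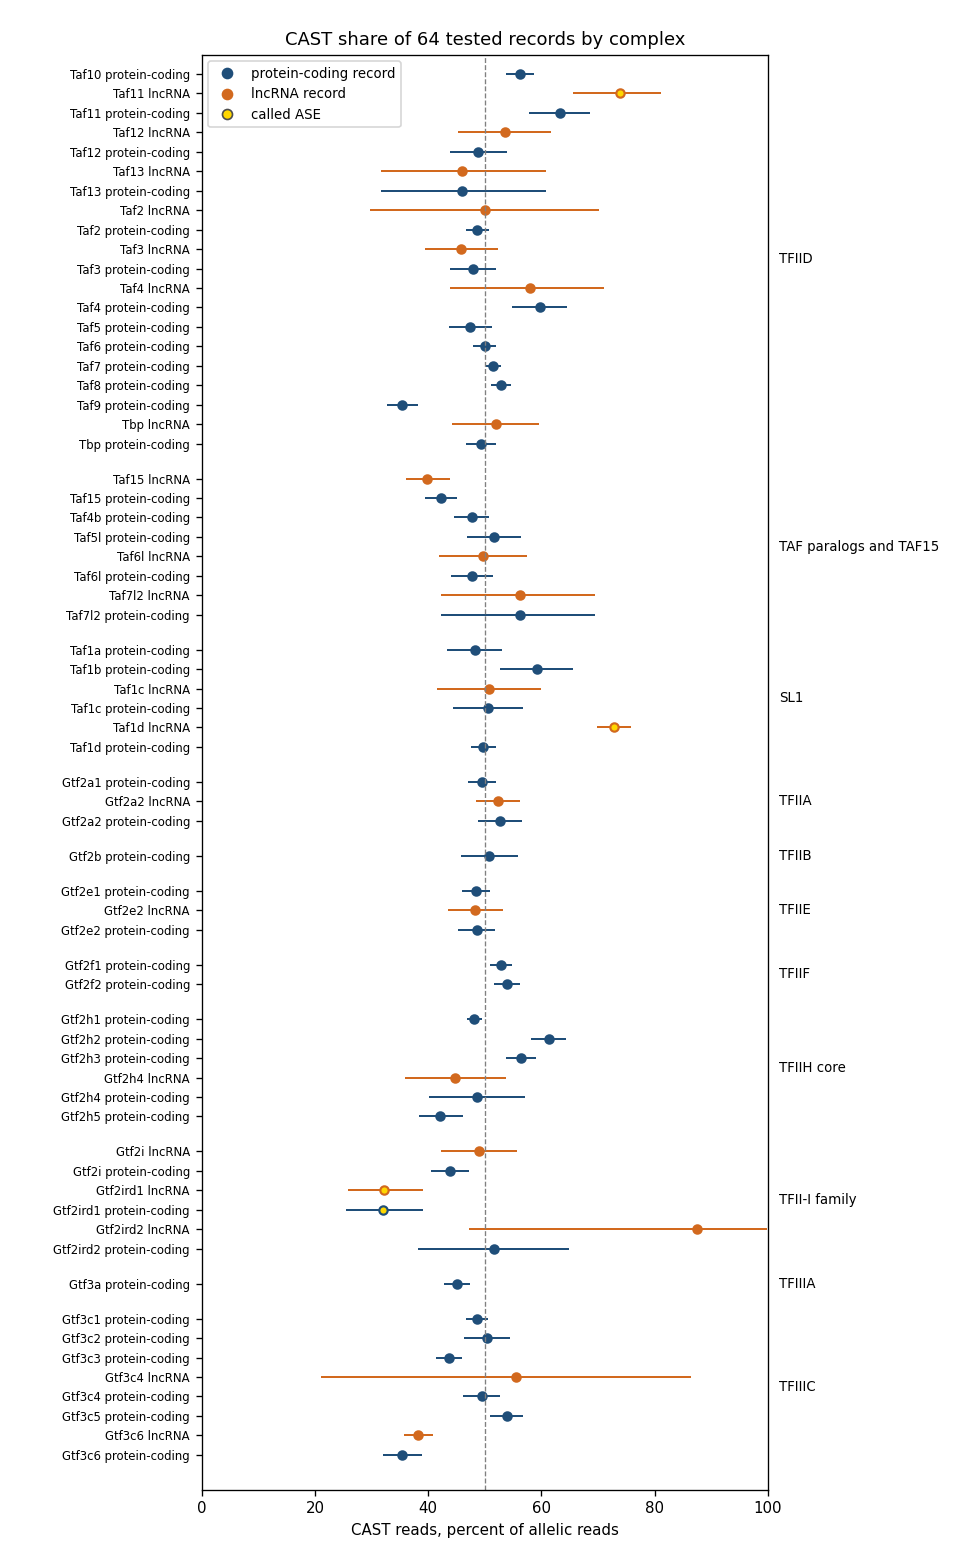
CAST share of allelic reads (x axis, percent) of the 64 tested records, grouped by complex, with exact 95% intervals of counting error; blue, protein-coding records; orange, lncRNA records; yellow centers, records called ASE. Most points lie between 40% and 60%, while, of the records called ASE, Taf11 and Taf1d lncRNA lie above 70% and both Gtf2ird1 records at 32%; the Gtf2ird2 lncRNA record at 87.5% has 8 reads and a wide interval.

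The ASE records are described with sequences at their loci, which are promoters of the gene and, for Taf1d, RNAs inside the record. The promoters are RefSeq sequences of GRCm38.p6 from 250 bases before to 50 bases after a start site, written 5′ to 3′ on the gene's strand. The capitals mark the TATA box letters TATAAA, to which TBP can bind, and the GC box letters GGGCGG. Both were searched on either strand (TTTATA and CCGCCC on the other) and anywhere in a window. A match therefore does not show a working box at the right distance from a start site. The letters of the motifs do not overlap each other. Of 50 promoter windows of 41 matched member genes, 7 (14%) held TATAAA, against 13.6% of 32851 windows of all genes, and 32 (64%) held GGGCGG, against 35.7%. The members' windows had a median GC content of 59.7%, against 52.7% for all windows.

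Tbp itself, the subunit that binds the TATA box, was a balanced gene. Its protein-coding record had 751 CAST and 771 S129 reads at 34 variants (49.3% CAST, interval 46.8 to 51.9) and a TPM of 20.2. Its lncRNA record had 94 CAST and 87 S129 reads (51.9%, interval 44.4 to 59.4) and a TPM of 12.8. The coding record is overlapped over 8094 bases by Pdcd2, a gene on the other strand whose coding record had 115 CAST and 95 S129 reads (54.8%). Allelic counts were not described as using the strand of a read, so reads of overlapping genes on opposite strands cannot be told apart; 24 of the 64 tested members overlap such a gene in GENCODE M21. Neither Tbp record passed the exact binomial test (adjusted exact p = 0.751 for the coding and 0.777 for the lncRNA record). Its promoter (chr17:15499638-15499937, plus strand) is shown as that of the balanced TATA-binding subunit; it held 1 GC box and no TATAAA.
Tbp: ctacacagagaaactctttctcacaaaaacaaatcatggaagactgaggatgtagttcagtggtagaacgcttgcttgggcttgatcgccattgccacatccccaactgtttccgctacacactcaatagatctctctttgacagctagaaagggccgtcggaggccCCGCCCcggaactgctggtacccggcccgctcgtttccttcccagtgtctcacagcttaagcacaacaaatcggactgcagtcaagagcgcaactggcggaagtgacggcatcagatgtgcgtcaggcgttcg

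Taf1d had the ASE record with the highest TPM and the most reads. TAF1D is a subunit of SL1, and its gene on chromosome 9 is a host of small nucleolar RNAs (snoRNAs), which are cut out of the transcript and guide chemical changes of ribosomal RNA. The lncRNA record of Taf1d (chr9:15316206-15316947, plus strand, exons of 432 and 59 bases) had 708 CAST and 264 S129 reads at 4 variants, all in exons, a CAST share of 72.8% (interval 69.9 to 75.6) and a log2 fold change of 1.42 ± 0.10 (SE from counting error; adjusted exact p = 4.82e-46, exact binomial test). The protein-coding record of the same gene (chr9:15306329-15308733) had 1177 CAST and 1189 S129 reads at 12 variants, a CAST share of 49.7% (interval 47.7 to 51.8). The records lie apart, the coding record near the start and the lncRNA record at the end of the gene, and their shares differed by 23.1 percentage points with intervals that did not overlap. No other gene with at least 20 reads in both records differed by 20 points. The reference base was carried by S129 at all 4 variants of the lncRNA record and all 12 of the coding record.

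The lncRNA record also had the highest TPM of all members, 446 (475 over exons), against 120 for the coding record. GENCODE M21 places 8 snoRNAs within Taf1d, and 2 of them lie inside the lncRNA record. Gm23455 (chr9:15316489-15316588, 100 bases) lies wholly in the first exon of the record, and Gm22579 (chr9:15316676-15316808, 133 bases) in its intron. Their sequences are given because the reads of the record can come from the spliced transcript, from these RNAs or from any other Taf1d transcript over these bases. The table does not separate these sources. The 2 records thus compare the start of the gene with its end, and not coding with noncoding RNA. The capitals mark the last ACA, the box near the 3′ end that names H/ACA snoRNAs, which was followed by 3 bases in Gm23455 and by 2 bases in Gm22579.
Gm23455: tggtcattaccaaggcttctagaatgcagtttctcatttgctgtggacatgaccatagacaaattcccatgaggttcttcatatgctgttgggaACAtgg
Gm22579: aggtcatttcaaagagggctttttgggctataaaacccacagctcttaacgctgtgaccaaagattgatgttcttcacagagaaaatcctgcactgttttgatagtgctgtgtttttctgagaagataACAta

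**Figure D3:**
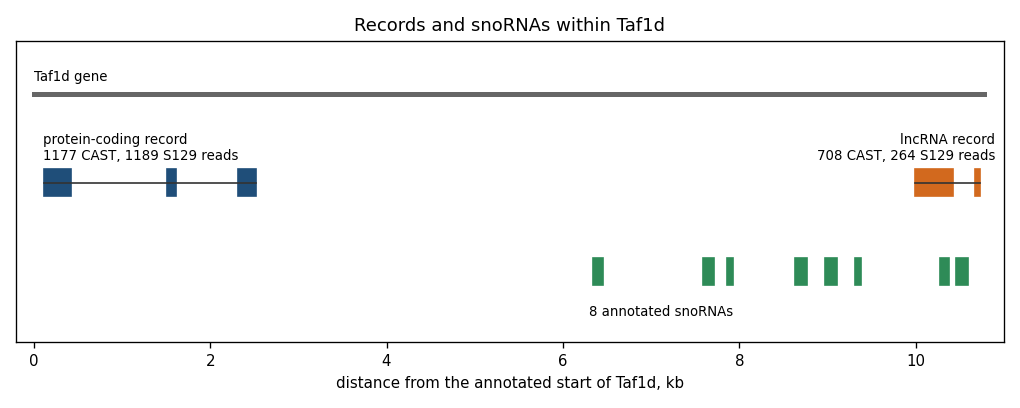
Map of Taf1d by distance from the annotated gene start (x axis, kb), drawn to scale; blue and orange boxes are the exons of the protein-coding and lncRNA records with their CAST and S129 reads, green boxes the annotated snoRNAs. The coding record with 1177 CAST and 1189 S129 reads lies near the gene start, and the lncRNA record with 708 CAST and 264 S129 reads lies around 2 of the 8 snoRNAs.

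The last 28 bases of the lncRNA record overlap the end of Cep295, a centriole gene on the other strand, whose record had 2555 CAST and 2371 S129 reads (51.9% CAST). Of the 6 tested records within 500 kb that did not overlap the lncRNA record, none was called ASE, and their median CAST share was 57.1%. The RefSeq promoter of Taf1d (chr9:15305964-15306263, plus strand), shown because the gene has a balanced record near it and an ASE record far from it, held 2 GC boxes and no TATAAA.
Taf1d: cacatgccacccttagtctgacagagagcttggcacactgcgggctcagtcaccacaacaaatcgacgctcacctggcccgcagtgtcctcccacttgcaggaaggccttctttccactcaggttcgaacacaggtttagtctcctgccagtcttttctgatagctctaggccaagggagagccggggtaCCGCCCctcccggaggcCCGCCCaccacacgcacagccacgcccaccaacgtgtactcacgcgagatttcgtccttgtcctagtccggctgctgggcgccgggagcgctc

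In TFIID, 13 genes were measured and 20 of 21 records were tested, with a median CAST share of 50.0%. At any fold, 6 records were higher on CAST and 1 on S129, and 13 did not pass the exact binomial test. Taf11, whose histone fold pairs with that of TAF13, was the only TFIID gene called ASE. Its lncRNA record (chr17:27907809-27909139, minus strand) had 102 CAST and 36 S129 reads at 7 variants, all in exons, a CAST share of 73.9% (interval 65.8 to 81.0) and a 2.83-fold difference with an SE of 0.28 on the log2 scale (adjusted exact p = 9.22e-08). The protein-coding record (chr17:27901122-27909242), which contains the lncRNA record, had 224 CAST and 130 S129 reads at 15 variants (63.3%, interval 58.0 to 68.3; log2 fold change 0.78, adjusted exact p = 3.11e-06) and missed the 2-fold minimum. Both records were thus higher on CAST, and the coding record shares the variants of the lncRNA record. The 8 variants of the coding record outside it gave 122 CAST and 94 S129 reads, a CAST share of 56.5% with an interval of 49.6 to 63.2 that includes equality.

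The lncRNA record of Taf11 is overlapped over 541 bases by Gm49801, an antisense lncRNA gene that had 34 CAST and 8 S129 reads at 2 variants (81.0% CAST) and was itself called ASE. Without reads equal to those of Gm49801, 68 CAST and 28 S129 reads (70.8%) were left in the lncRNA record and 190 CAST and 122 S129 reads (60.9%) in the coding record. Of 28 tested records within 500 kb, 6 were called for CAST and 0 for S129, and the median CAST share was 55.8%. Around Taf11, the non-reference base lay on S129 at 9.97% of the 572 variants of the neighboring records, tested or not. RefSeq lists 2 promoters of Taf11, shown because they differ in the letters they hold. The upstream window (chr17:27909193-27909492, minus strand) had 2 GC boxes and a GC content of 75%. The other (chr17:27907695-27907994, minus strand) lies inside the coding record and contains the annotated start of Gm49801 on the other strand. It had 1 TATAAA, on the strand opposite to Taf11 (TTTATA as written), a GC content of 51.3% and no GC box.
Taf11 upstream: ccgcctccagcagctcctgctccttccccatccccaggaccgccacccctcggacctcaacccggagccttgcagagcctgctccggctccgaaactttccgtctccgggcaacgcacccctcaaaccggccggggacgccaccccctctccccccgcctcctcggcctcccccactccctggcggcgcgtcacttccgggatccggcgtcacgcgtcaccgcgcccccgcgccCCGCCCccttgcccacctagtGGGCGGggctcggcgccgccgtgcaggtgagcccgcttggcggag
Taf11 internal: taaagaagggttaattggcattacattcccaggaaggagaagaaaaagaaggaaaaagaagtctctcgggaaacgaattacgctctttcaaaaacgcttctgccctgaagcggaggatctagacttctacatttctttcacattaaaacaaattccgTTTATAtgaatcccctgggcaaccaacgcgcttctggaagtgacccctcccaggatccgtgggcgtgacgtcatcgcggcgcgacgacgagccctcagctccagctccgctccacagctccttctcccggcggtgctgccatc

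The other TFIID genes differed by less than 2-fold between CAST and S129. Taf9, a histone-fold TAF that pairs with TAF6 in TFIID and also belongs to SAGA, had 482 CAST and 877 S129 reads at 9 exonic variants (35.5% CAST, interval 32.9 to 38.1; log2 fold change -0.86 ± 0.08, SE; adjusted exact p = 7.76e-26, exact binomial test). It was the TFIID record with the lowest CAST share, and its interval did not overlap those of Tbp. The record of Ak6, an adenylate kinase gene on the same strand, overlaps nearly the whole Taf9 record and had 527 CAST and 977 S129 reads (35.0%), so the reads of Taf9 and Ak6 cannot be told apart. Taf4, the subunit that nucleates TFIID assembly, had 267 CAST and 180 S129 reads in its coding record (59.7%, adjusted exact p = 1.65e-04), just under 1.5-fold, and 33 CAST and 24 S129 reads in its lncRNA record. Taf10, Taf8 and Taf7 were also higher on CAST, at shares of 56.2%, 52.8% and 51.5% with adjusted exact p of 8.52e-07, 0.00158 and 0.0245. Taf10 is overlapped over 3533 bases by Ilk on the other strand (495 CAST and 502 S129 reads), and Taf7 lies wholly inside protein-coding genes on the other strand, such as Gm42416 (6972 CAST and 4355 S129 reads, 61.6% CAST), so their reads cannot be told apart from those of these genes. Taf6, the histone-fold partner of TAF9, had 1545 CAST and 1548 S129 reads.

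Levels within TFIID ranged widely. In the protein-coding records, Taf7, a subunit that regulates TAF1, had 148 TPM, Taf10 88.0 TPM, Taf9 57.2 TPM and Taf6 45.1 TPM, while Taf3, whose PHD finger reads methylated histone H3, had 1.54 TPM, Taf13 1.94 TPM and Taf4 2.91 TPM. Tbp, at 20.2 TPM, stood above 89.1% of all protein-coding records of the table, and Taf7 above 98.9%. These TPM values are scaled for length and count exons and introns, and each is 1 value without an error. Over exons, the low genes were lower still, with 1.47 TPM for Taf4, 1.17 TPM for Taf13 and 0.921 TPM for Taf3, and Taf8 had 8.71 TPM, against 16.2 TPM with introns. Taf7 and Taf10 were higher over exons, at 178 and 111 TPM. They are levels of 1 chosen transcript, and do not give protein ratios in the complex.

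**Figure D4:**
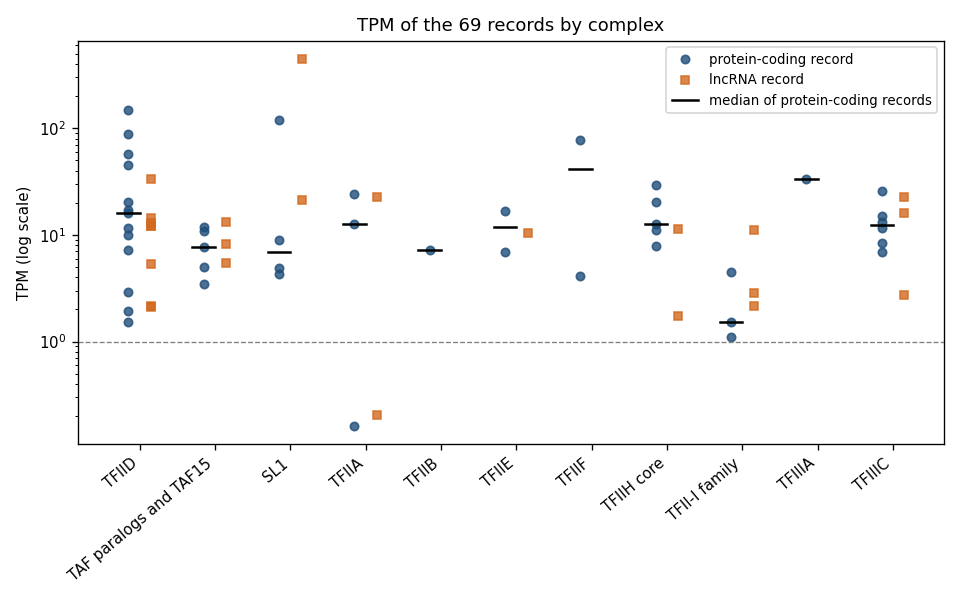
TPM of the 69 member records (y axis, log scale) by complex; blue circles, protein-coding records; orange squares, lncRNA records; black lines, medians of protein-coding records; dashed line, TPM of 1. The lncRNA record of Taf1d was highest at 446 TPM, and both Gtf2a1l records lay under 1, at 0.162 and 0.204 TPM.

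Paralogs of TAFs and other factors were mostly lower than their partners. Taf4b, a gonad-enriched paralog, had 3.46 TPM, against 2.91 TPM for Taf4. Taf5l and Taf6l, which replace TAF5 and TAF6 in SAGA, had 12.0 and 7.71 TPM, against 17.1 TPM for Taf5 and 45.1 TPM for Taf6. Taf7l2 had 5.04 TPM, against 148 TPM for Taf7. Gtf2a1l, a germ cell paralog of the large TFIIA subunit gene, had 0.162 TPM, against 12.7 TPM for Gtf2a1. Gtf2ird2 had 1.10 TPM, against 1.53 TPM for Gtf2ird1, and the order turned over exons, with 0.489 TPM for Gtf2ird2 and 0.253 TPM for Gtf2ird1. The chosen transcripts have 16 exons for Gtf2ird2 and 4 for Gtf2ird1, so this order is not one of whole genes. By the TPM over exons and introns, only Taf4b of these 6 paralogs, Taf4b, Taf5l, Taf6l, Taf7l2, Gtf2a1l and Gtf2ird2, was higher than its partner, and by the TPM over exons Taf4b and Gtf2ird2 were; no level has an error.

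The TFII-I family had the lowest median level of its coding records (1.53 TPM, from 1 chosen transcript per gene) and the only protein-coding ASE record. Its genes, Gtf2i, Gtf2ird1 and Gtf2ird2, encode signal-responsive DNA-binding factors rather than parts of the initiation complex. In humans, the counterparts of Gtf2i and Gtf2ird1 lie in the region commonly deleted in Williams-Beuren syndrome. Gtf2ird1 was higher on S129 in both records. Its protein-coding record (chr5:134411077-134455951, minus strand) had 65 CAST and 138 S129 reads at 14 variants (32.0% CAST, interval 25.7 to 38.9; log2 fold change -1.09 ± 0.22, SE; adjusted exact p = 1.57e-06, exact binomial test). Its lncRNA record (chr5:134404796-134456674), which contains the coding record, had 68 CAST and 143 S129 reads at 15 variants (32.2%, interval 26.0 to 39.0; log2 fold change -1.07, adjusted exact p = 1.28e-06). The records share nearly all reads and count as 1 observation. All variants of both records lay in introns.

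The level of the Gtf2ird1 records was low, at 1.53 TPM in the coding and 2.15 TPM in the lncRNA record, and at 0.253 and 0.950 TPM over exons. Each is the level of 1 chosen transcript with 4 exons, and other transcripts of the gene were not measured here. With the minimum of 1 set on the TPM over exons, or a TPM minimum of 5, neither record was called and 2 members remained. Of 12 tested neighboring records within 500 kb, 1 was called for CAST and 0 for S129, and the median CAST share was 50.3%. Within 200 kb, the S129 allele was also higher, at under 2-fold, in Gtf2i (439 CAST and 562 S129 reads, 43.9% CAST, adjusted exact p = 3.89e-04), in Rfc2 (711 CAST and 973 S129 reads, 42.2%) and in Eif4h (2419 CAST and 3003 S129 reads, 44.6%). The lncRNA record of Gtf2i, which lies apart from its coding record, had 119 CAST and 124 S129 reads (49.0%). Its TPM was 11.1, against 4.50 in the coding record, so the level of this gene depends on the transcript chosen. Gtf2ird2 had 31 CAST and 29 S129 reads in its coding record, and 7 CAST and 1 S129 reads at 1 variant in its lncRNA record, which did not pass the exact binomial test (adjusted exact p = 0.13). The promoter of Gtf2ird1 (chr5:134456667-134456966, minus strand), the gene with ASE in its protein-coding record, held 2 GC boxes and no TATAAA in a window of 70.3% GC.
Gtf2ird1: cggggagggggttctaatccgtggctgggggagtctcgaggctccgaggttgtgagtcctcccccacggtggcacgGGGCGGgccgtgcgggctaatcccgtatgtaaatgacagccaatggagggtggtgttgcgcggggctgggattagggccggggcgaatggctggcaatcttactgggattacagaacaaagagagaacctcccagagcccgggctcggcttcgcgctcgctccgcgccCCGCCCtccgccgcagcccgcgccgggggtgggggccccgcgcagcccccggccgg

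Of the factors that act after TFIID, TFIIA, TFIIB and TFIIE had no record that passed the test at any fold, in 7 tested records of Gtf2a1, Gtf2a2, Gtf2b, Gtf2e1 and Gtf2e2 with CAST shares of 48.3% to 52.7%. Both TFIIF genes passed with small differences, Gtf2f1 at 52.9% CAST (1600 CAST and 1427 S129 reads, adjusted exact p = 0.00491) and Gtf2f2 at 53.9% (1151 CAST and 985 S129 reads, adjusted exact p = 0.00112). In TFIIH, 2 records were higher on CAST and 2 on S129 among 6 tested. Gtf2h2, the p44 subunit that controls the XPD helicase, had 683 CAST and 431 S129 reads at 52 variants (61.3% CAST, interval 58.4 to 64.2; log2 fold change 0.66 ± 0.09, SE; adjusted exact p = 3.61e-13). Gtf2h3 was at 56.4% CAST, and Gtf2h5, the smallest subunit, at 42.2%. Gtf2h1, the deepest TFIIH record, was at 48.2% CAST with 3321 CAST and 3574 S129 reads, a difference that passed the test (adjusted exact p = 0.00649) with an interval of 47.0 to 49.4.

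Gtf2h2 (chr13:100468580-100492561) and Taf9 (chr13:100651626-100656060) lie 159 kb apart and differed in opposite directions, 61.3% CAST in Gtf2h2 and 35.5% CAST in Taf9, with intervals far from each other. Rad17, a checkpoint gene within 200 kb of both, had 537 CAST and 569 S129 reads (48.6%). Cdk7, the kinase of TFIIH, lies within 200 kb of Taf9 and had 2083 CAST and 2294 S129 reads (47.6%). Ccnb1, encoding cyclin B1, was called for S129 there with 969 CAST and 1988 S129 reads, and Mrps36, a mitochondrial protein gene, for CAST with 221 CAST and 21 S129 reads in its coding record. Neighboring genes in this stretch of chromosome 13 thus had shares on both sides of equality.

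Among the factors of RNA polymerase III, TFIIIC had 1 record higher on CAST, 3 higher on S129 and 4 that did not pass. Gtf3c6, the smallest TFIIIC subunit, was higher on S129 in both records, with 299 CAST and 547 S129 reads in the protein-coding record (chr10:40251156-40258108; 35.3% CAST, interval 32.1 to 38.7; log2 fold change -0.87, adjusted exact p = 1.23e-16) and 626 CAST and 1010 S129 reads in the lncRNA record (chr10:40249524-40254329; 38.3%, interval 35.9 to 40.7; adjusted exact p = 2.29e-20). These records overlap in part. Of 8 tested neighbors within 500 kb, none was called, and the nearby Rpf2, a ribosome assembly gene, was higher on CAST with 2164 CAST and 1956 S129 reads (52.5%). Gtf3c3 had 43.7% CAST and Gtf3c5 53.9%. Gtf3a, the 5S-specific factor, had 927 CAST and 1129 S129 reads (45.1%, adjusted exact p = 3.70e-05). On the other strand, Gm13381 overlaps Gtf3c5 over 10388 bases and had 324 CAST and 352 S129 reads. Mtif3 overlaps Gtf3a in the same way over 4042 bases and had 102 CAST and 108 S129 reads. The reads of these overlapping genes cannot be told apart. In SL1, apart from the Taf1d lncRNA record, only Taf1b passed the test, with 147 CAST and 101 S129 reads (59.3%, adjusted exact p = 0.0107).

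Taf15, a FET-family RNA-binding protein found with TFIID, was higher on S129 in both records. Its coding record had 609 CAST and 832 S129 reads (42.3%, adjusted exact p = 2.68e-08), and its lncRNA record, which lies inside it (chr11:83473115-83489045), had 272 CAST and 410 S129 reads (39.9%, interval 36.2 to 43.7; log2 fold change -0.59, adjusted exact p = 7.05e-07). The 34 variants outside the lncRNA record gave 337 CAST and 422 S129 reads (44.4%, interval 40.8 to 48.0), which also excludes equality. Only 3 of the 26 variants of the lncRNA record lay in exons, and its TPM was 13.1, against 4.42 over exons.

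Coding and lncRNA records of a gene mostly had like shares, but most pairs overlap and can count the same variants and reads. Of 24 genes with both records, 16 had the lncRNA record within the coding record, 2 the reverse, 3 overlapped in part and 3 lay apart. Reads in both records were present for 21 genes, and 3 of these had identical reads in both (Gtf2a1l, Taf13 and Taf7l2), so such pairs are not independent. With at least 20 reads in each record, 18 genes remained, and apart from Taf1d the largest difference was 10.6 points in Taf11. Among these, only Taf1d and Gtf2i have records that lie apart, and they differed by 23.1 and 5.1 points. The TPM was higher in the lncRNA record in 18 of 24 genes, up to 3.70 times in Taf1d and 2.90 times in Taf2 (33.4 TPM, against 11.5 TPM in the coding record). Where records overlap, reads over the shared bases can come from either transcript. These values therefore do not show that noncoding RNA exceeds coding RNA.

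**Figure D5:**
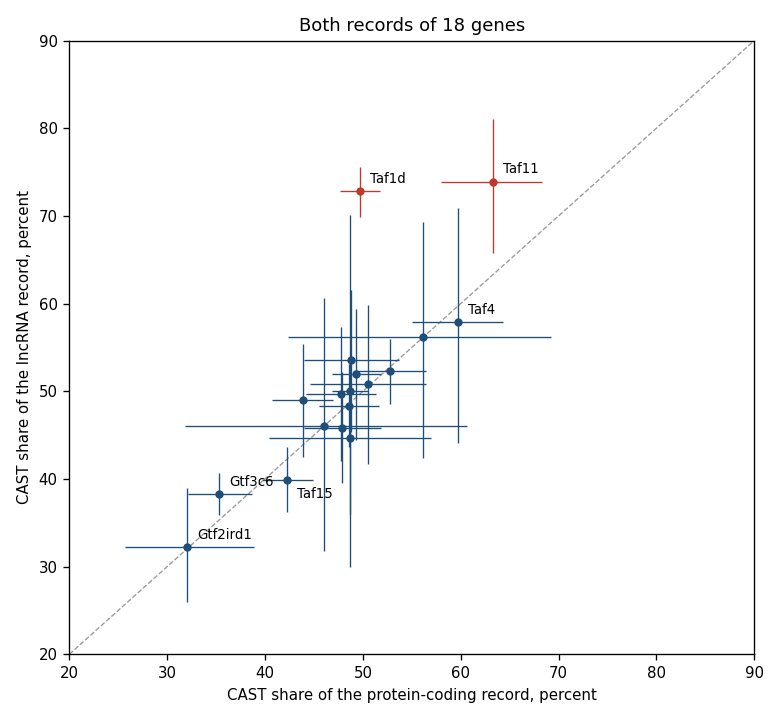
CAST share of the protein-coding record (x axis) against that of the lncRNA record (y axis) in the 18 genes with at least 20 reads in each, in percent, with exact 95% intervals of counting error; the dashed line marks equal shares and red points the genes that differ by over 10 points. Taf1d (49.7% and 72.8%) and Taf11 (63.3% and 73.9%) lie above the line.

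Other genes of the pathway, in 6 lists chosen by function, had 59 tested records, of which 2 (3.39%) were called ASE, beside the 14.1% of all tested records. At any fold, 15 were higher on CAST, 14 higher on S129 and 30 did not pass. Both called records belonged to Snapc4, the DNA-binding subunit of the snRNA activating complex. Its coding record had 131 CAST and 36 S129 reads (78.4% CAST). Its lncRNA record had 55 CAST and 0 S129 reads at 1 variant. The floor of 3 reads used for 0 reads equals 5.45% of these 55 reads and is not an interval limit. None of the 16 tested records of RNA polymerase II subunits, 15 of SAGA, 9 of the TFIIH helicases and kinase, 4 of the TBP relatives and regulators and 2 of the RNA polymerase I factors was called. Under 2-fold, some coding records were named after their values were seen. Ercc2, the XPD helicase of TFIIH, had 487 CAST and 265 S129 reads (64.8%, adjusted exact p = 4.44e-15). Ccnh, the cyclin of CDK7, had 1810 CAST and 2385 S129 reads (43.1%). The lncRNA records of both genes leaned the other way. That of Ercc2 had 25 CAST and 43 S129 reads (36.8%) and did not pass the exact binomial test (adjusted exact p = 0.0778). That of Ccnh had 284 CAST and 229 S129 reads (55.4%) and passed it (adjusted exact p = 0.0378). Tbpl1, a TBP-like factor, had 121 CAST and 207 S129 reads (36.9%, adjusted exact p = 1.03e-05).

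The strain that carried the reference base was compared because reads were aligned to the reference genome. Of 1610 variants of the members, 145 (9.01%) had the non-reference base on S129, against 11.1% of all variants, and 38 tested members had none. The variants of the members were thus nearly all non-reference on CAST, and the part of alignment preference in a share was not tested. The sum of the members' reads was near equality (49.6% CAST), as given above.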

How the data were processed

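The authors aligned the reads to mm10 (GRCm38.p6) with STAR (version 2.7.2c) and the F123 variants, removed duplicates with Picard and counted allelic reads with GATK ASEReadCounter; per the paper's methods, reads at variants in exons and introns were added up per gene. The deposited counts (CAST and S129 reads) and TPM values are 1 value per record, with none per replicate, and were taken as both replicates together. The authors computed TPM from HTSeq counts over exons and introns and kept 1 transcript per gene and biotype by RNA polymerase II occupancy; the deposited variant numbers per record give exon, intron and non-reference strain. A minimum of 20 reads per variant is stated, while tested records held as few as 8 reads. The deposited allelic ratios, fold changes, p-values and gene classes hold the authors' own comparison and were not used.

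Here CAST reads were tested against an equal share (null share 0.5) with two-sided exact binomial tests and Benjamini-Hochberg adjustment over all 18632 records with allelic reads, and ASE was called where the log2 fold change was 1 or more in size, TPM was 1 or more and the adjusted p did not exceed 0.05. Standard errors follow from the counts, each taken as a separate read. The floor for 0 reads was 3 reads over both replicates. All 69 records matched GENCODE M21 (GRCm38) at the same coordinates. The neighbors of a record were tested records within 500 kb of other genes that did not overlap it. Promoters were taken from RefSeq (GRCm38.p6), and snoRNAs from GENCODE M21 transcripts. The calling code was run on simulated counts drawn as independent reads, the model of the test itself. This checks the code only, and cannot show how calls behave with repeated counting or spread between replicates. Tests were run with scipy (1.17.1), tables were handled with pandas (2.3.3) and numpy (2.4.6) under Python (3.11.15), and plots were drawn with matplotlib (3.10.9).

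Named were Tbp, records called ASE or at least 1.5-fold different with an adjusted p of at most 0.05, genes whose records differ by at least 20 points, the 5 highest and 5 lowest TPM records and pairs of paralogs; other named genes and neighbors were chosen after their values were seen. The members, the lists of partner and marker genes and the tests were chosen with earlier results of these data known. Alternatives changed the minima of reads, variants and TPM, the spread assumed beyond counting error, the null share, the thresholds, the adjustment, added reads and the number of records per gene.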

Additional observations from a re-analysis of the deposited data

How the results depend on the processing

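The 4 member calls were made at all of 9 alternatives: at least 20 or 100 allelic reads, at least 3 variants, no TPM minimum, the CAST share of all reads (50.4%) as the null share, an intra-gene correlation of 0.01, an adjusted p of at most 0.01, adjustment over expressed records, and 1 read added to each allele. The number of members called was 2 at a TPM of at least 5 and, added after seeing the data, at a TPM over exons of at least 1 (the Taf1d and Taf11 lncRNA records), 1 with 1 record per gene (Gtf2ird1), 10 at 1.5-fold, and 0 at 3-fold and at an intra-gene correlation of 0.05. With 1 record per gene the lncRNA records of Taf1d and Taf11 are left out by construction. The number of partner records called was 1 with at least 100 reads, with at least 3 variants, at a correlation of 0.05 and with 1 record per gene, 3 with no TPM minimum (with the Atxn7 coding record at 0.423 TPM) and 9 at 1.5-fold, against 2. Over 145 recomputed calls of named records, 12 ended and 6 were gained; the fold changes themselves do not depend on these settings, apart from the 1 read added to each allele. The median TPM of the members was 11.2, 11.2 with 1 record per gene and 11.5 over records with a TPM of at least 1. No paired analysis was possible because the table gives no values per replicate; for the same reason no replicate was left out. Depth limits the smallest records most: the 8 reads of the Gtf2ird2 lncRNA record left an interval of the CAST share of 47.3% to 99.7%.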
